A study of Mus musculus with 151 samples.

Results

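The genes described here are 10 genes of the Bcl2 family and of oocyte death: Bcl2, Bcl2l1, Bcl2l10, Mcl1, Bax, Bak1, Bbc3, Pmaip1, Bcl2l11 and Trp63. They were chosen by name and not by a measured value, though earlier results of these data were known. All 10 were found among the 35976 gene names in each of the 7 count tables. The tables compare female mice conceived by natural mating (Natural) with female mice conceived by in vitro fertilization (IVF), both from CF-1 eggs and B6/SJL sperm. IVF embryos came from superovulated females, were cultured to the blastocyst stage and were transferred to pseudopregnant recipients, whereas Natural embryos were never cultured or transferred, so that fertilization, culture, transfer and superovulation of the egg donor cannot be told apart. Adults of both groups were delivered by cesarean section and fostered. Whole ovaries gave 4 Natural and 6 IVF libraries at E18.5, 4 and 5 libraries at the age of 12 weeks, and 5 of each group at 39 weeks, and primordial germ cells (PGCs) of E13.5 females were sequenced as libraries of 100 cells (4 and 5). Single oocytes and the cumulus cells that surround them were collected after superovulation with eCG and hCG, giving 36 Natural and 40 IVF oocytes at 12 weeks, 9 and 10 oocytes at 39 weeks, and 5 and 5 cumulus libraries at 12 weeks. Cumulus cells at 39 weeks were not analysed here.

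Total counts per library ranged from 2839022 (IVF replicate 4 at 12 weeks) to 43363799 in ovaries, from 839781 to 31126357 in single oocytes, from 4364495 to 8675189 in PGCs and from 2532824 to 6345249 in cumulus cells. The labels of 1 Natural 39-week ovary also give 40 weeks, and the methods give the collection day of IVF fetuses both as E18.5 and as a day later, so age and conception cannot be fully told apart at E18.5. The defining markers of each labelled tissue were present: 12 oocyte markers summed to 24800 CPM (counts per 1000000 counts of a library) or more in every set of 12-week oocytes, 9 germ cell markers to 2430 CPM or more in every PGC library, and 10 granulosa markers to 1150 CPM or more in every cumulus library. Some samples stood apart. The oocyte markers of 10 of 76 single oocytes at 12 weeks and of 2 of 19 at 39 weeks summed to under 10000 CPM, and IVF replicate 1 of the 39-week ovaries held 9360 CPM of 8 oviduct and epithelium markers against 61.9 to 254 CPM in the other 9 ovaries of that age. Many results that rest on these samples are given with and without them. Bak1 and Bcl2l10 at 39 weeks and the interactions of 39 against 12 weeks have no separate value without IVF replicate 1.

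Proteins of the Bcl2 family decide at the mitochondrion whether a cell dies. Bcl2, Bcl2l1 (Bcl-xL), Bcl2l10 and Mcl1 are usually grouped as survival proteins, Bax and Bak1 form the pore through which cytochrome c escapes, and the BH3-only proteins Bbc3 (PUMA), Pmaip1 (NOXA) and Bcl2l11 (BIM) inhibit the survival proteins or activate the pore. Trp63 encodes p63, whose TA form is held inactive in resting oocytes, is switched on after DNA damage through Chek2, and then induces Bbc3 and Pmaip1, so that damaged oocytes are removed from the ovarian reserve.

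Many members of the Bcl2 family share a BH3 domain, the groove-binding helix through which they pair. The coding sequences of the genes other than Pmaip1, which was not searched here, were taken from the GENCODE mouse annotation (GRCm38) and searched for codons of a leucine, any 3 residues, a glycine or alanine and an aspartate. Of the 9 genes searched, 7 held exactly 1 match, whereas Bcl2l10 and Trp63 held none. Matches to so short a pattern are common, and 23.9% of 21634 protein-coding genes held at least 1. The stretches below show this shared core. Each is 27 bases on the coding strand, 5′ to 3′, with the glycine or alanine codon and the aspartate codon in capitals, and each lies in 1 coding exon.
Bcl2: accctccgccgggctGGGGATgacttc
Bcl2l1: gcgctgagagaggcaGGCGATgagttt
Mcl1: accctgcggcgcgtgGGCGACggcgtg
Bax: tgtctccggcgaattGGAGATgaactg
Bak1: cagcttgctctcatcGGAGATgatatt
Bbc3: cagctgcggcggatgGCGGACgacctc
Bcl2l11: gagctgcggcggatcGGAGACgagttc

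On GRCm38 these stretches lie at chr1:106712578-106712604 (minus strand, Bcl2), chr2:152829700-152829726 (minus, Bcl2l1), chr3:95659433-95659459 (plus, Mcl1), chr7:45466000-45466026 (minus, Bax), chr17:27022534-27022560 (minus, Bak1), chr7:16313770-16313796 (plus, Bbc3) and chr2:128147147-128147173 (plus, Bcl2l11). Bcl2l10 spans chr9:75347758-75351632 (plus) and Trp63 spans chr16:25683763-25892102 (plus). In this annotation 25.5% of the exon bases of Bak1 are shared with Ggnbp1 on the opposite strand, 12.2% of those of Bax with Gm45808 on the same strand and 6.09% of those of Bcl2 with the antisense gene D630008O14Rik. How the counting treated strand is not given in the sources used here, so part of the Bak1, Bax and Bcl2 counts may belong to these neighbours. Counts per gene also do not separate the TA and ΔN forms of Trp63 or the long and short forms of Bcl2l1.

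The 10 genes had very different homes in the ovary. Bcl2l10 was an oocyte transcript: in Natural samples it averaged 7360 CPM in 12-week oocytes and 6570 CPM in 39-week oocytes, against 19.8 CPM in the 12-week ovary, 11.4 CPM in the 39-week ovary, 4.22 CPM in the E18.5 ovary and 2.41 CPM in cumulus cells. All 9 PGC libraries held 0 counts of it, which allows a level of up to 0.346 to 0.687 CPM (3 counts per library). Values of the oocytes did not overlap those of any other sample, while each neighbour among the other Natural samples overlapped the next. The tables were scaled separately, and ovaries and low-input samples were made into libraries with different kits, so only large gaps between them carry weight.

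Mcl1, a short-lived survival protein, had the reverse pattern. Its Natural mean was 244 ± 13.6 CPM (SD, n = 4) in the 12-week ovary, 226 ± 26.4 (n = 5) in the 39-week ovary and 188 ± 11.8 (n = 4) in the E18.5 ovary, and these neighbours overlapped. It was 57.4 CPM in PGCs and 38.0 CPM in cumulus cells, and only 2.65 and 2.14 CPM in 39- and 12-week oocytes, which overlapped each other and no other sample. The pore protein Bak1 followed the same line, with Natural means of 58.8 to 67.6 CPM in the 3 ovaries, 4.13 CPM in cumulus cells and at most 0.378 CPM in PGCs and oocytes. Bcl2 stood at 48.4, 28.1 and 19.4 CPM in the Natural ovaries of E18.5, 12 and 39 weeks, with no overlap between these ages, and at 1.38 CPM or less elsewhere.

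Bax, the other pore protein, was highest in PGCs at 160 ± 46.0 CPM (SD, n = 4), overlapping cumulus cells at 70.4 CPM, with means of 43.4 to 63.0 CPM in ovaries and 5.20 to 7.78 CPM in oocytes. Bcl2l1 was present in every kind of sample, from 39.9 CPM in cumulus cells to 138 and 252 CPM in 12- and 39-week oocytes. Among the BH3-only genes, Bcl2l11 was the most even, at 27.8 to 41.0 CPM in PGCs, ovaries and 12-week oocytes. It was lower in cumulus cells (16.6 CPM) and in 39-week oocytes (12.4 CPM). Bbc3 was 6.69 to 14.2 CPM in ovaries and at most 0.186 CPM in oocytes, and Pmaip1 did not exceed 3.64 CPM in any Natural mean. Trp63 was highest in the fetal ovary at 39.1 ± 15.0 CPM (SD, n = 4), followed by 39-week oocytes at 19.3 CPM and 12-week oocytes at 14.5 CPM, and these neighbours overlapped. It was at most 3.98 CPM in adult ovaries, PGCs and cumulus cells. The oocyte means include oocytes of low oocyte markers, which at 39 weeks are Natural oocytes 6 and 9. Pooled Natural counts without these 2 gave 155 CPM of Bcl2l1 (289 CPM with them) and 4.04 CPM of Bax (9.13 CPM). For Trp63 they gave 14.0 CPM (20.3 CPM) and for Mcl1 0.919 CPM (2.73 CPM).

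**Figure D1:**
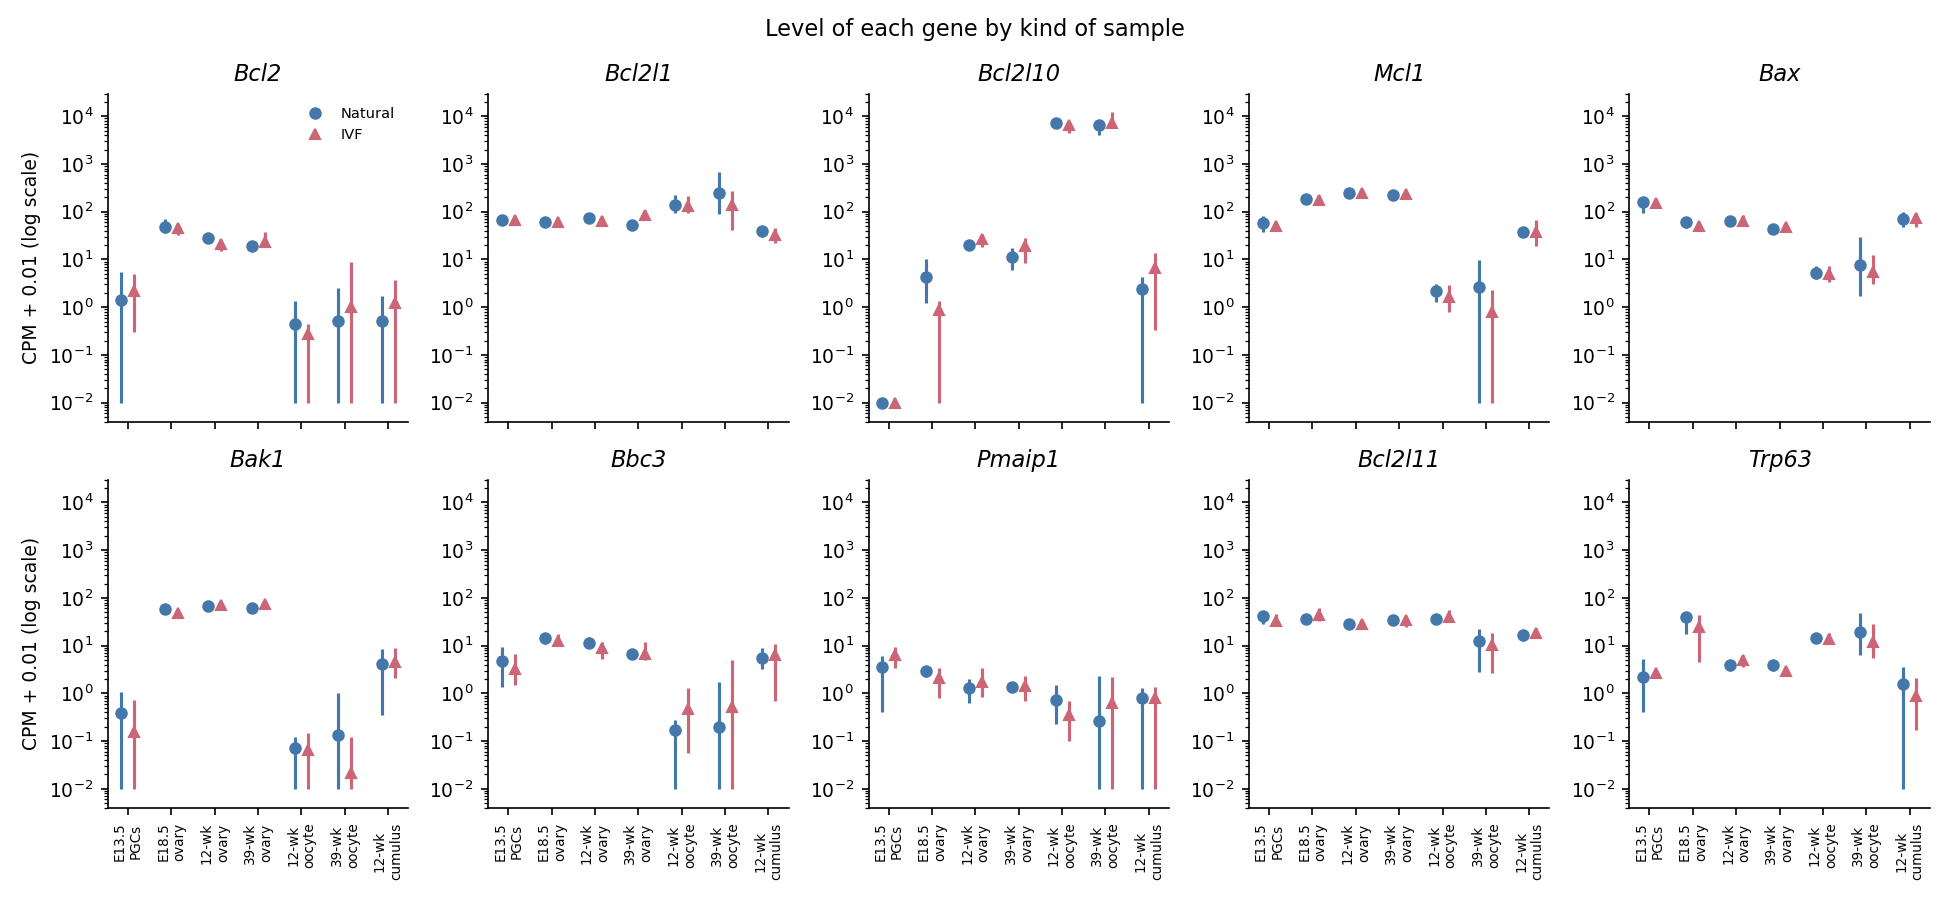
Level of each of the 10 genes by kind of sample, as CPM + 0.01 on a log axis, for Natural (circles) and IVF (triangles). Points are means over libraries, 12-week oocyte sets or 39-week oocytes, and bars run from the lowest to the highest. Bcl2l10 lies at 4080 CPM or more in all 39-week oocytes, where Mcl1 and Bak1 are near the bottom of their range.

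Divided by exon length, so that genes can be compared, the family was led by Bcl2l10 in oocytes, by Bax in PGCs and cumulus cells and by Mcl1 in ovaries. In Natural 12-week oocytes Bcl2l10 stood at 6030 CPM per kb, Bcl2l1 at 30.1, Bcl2l11 at 4.55 and Bax at 3.30 CPM per kb. In Natural PGCs Bax led with 102 CPM per kb, followed by Mcl1 at 16.8 and Bcl2l1 at 14.3, and in cumulus cells Bax again led with 44.7 CPM per kb. In the Natural ovaries Mcl1 led at each age with 55.0 to 71.4 CPM per kb, ahead of Bax at 27.5 to 40.0 and Bak1 at 24.4 to 28.1 CPM per kb. The leading gene of each kind of sample was that of the IVF group too.

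Over the 14 group means, the genes whose log2(CPM + 1) was most like that of Bcl2l10, among 20485 genes, were E330034G19Rik, Rfpl4 and C86187 (Pearson r = 0.998 each) and E330021D16Rik and Fbxw24 (r = 0.997 each). For Trp63 they were Rltpr (r = 0.975), Gm11985 (0.974), Nos1 (0.970), Syt16 (0.968) and Colq (0.965). These 14 points are descriptions that share kits and tables within a kind of sample.

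At E18.5, none of the 10 genes passed the test, in a comparison in which 5.43% of 16415 genes tested did (edgeR quasi-likelihood test, Benjamini-Hochberg adjusted p below 0.05). Of the 10 genes, 9 were lower in IVF, with a median log2 fold change of -0.24 against 0.00 over all genes tested, and 1 gene was under an unadjusted p of 0.05 (24.1% of all genes were). Natural and IVF values of 0 of the 10 genes were free of overlap, against 8.61% of all genes. DESeq2 called 1 of the 10, which was Bcl2l10, and it called 1870 genes over the whole table, against 891 in edgeR.

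Bcl2l10 gave the largest difference. Its 4 Natural ovaries held 3.00, 2.54, 1.20 and 10.1 CPM, and its 6 IVF ovaries ran from 0 over a median of 0.920 to 1.34 CPM. The highest Natural ovary, replicate 4, lay far above the rest, and the lowest Natural ovary lay inside the IVF range. The log2 fold change was -2.31 ± 0.66 (SE), with an adjusted p of 0.0578 in edgeR and 0.00667 in DESeq2. Without Natural replicate 4 it was -1.40, with an edgeR adjusted p of 0.245, and edgeR called the gene without Natural replicate 1 (adjusted p = 0.0435) or replicate 3 (adjusted p = 0.0445). Genes tested without a low-count filter gave an edgeR adjusted p of 0.0406.

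Trp63 held 47.9, 41.3, 17.4 and 50.0 CPM in the Natural fetal ovaries, and in the IVF ovaries it ran from 4.63 over a median of 26.8 to 44.2 CPM. The groups overlapped, and the IVF ovaries varied by more than any difference between the means (log2 fold change -0.69 ± 0.48, edgeR adjusted p = 0.402). Bax, the pore protein, ran from 46.7 to 76.6 CPM in Natural and 40.1 to 58.4 CPM in IVF (log2 fold change -0.30 ± 0.15, edgeR adjusted p = 0.231). Bak1 ran from 53.5 to 69.4 CPM in Natural and 41.9 to 59.8 CPM in IVF (-0.26 ± 0.13, edgeR adjusted p = 0.226). Bcl2l11 was the only gene of the 10 with a higher fitted level in IVF, at 44.1 against 35.8 CPM (0.30 ± 0.16, edgeR adjusted p = 0.260). The remaining genes, Bcl2, Bcl2l1, Mcl1, Bbc3 and Pmaip1, had log2 fold changes from -0.47 to -0.01 and edgeR adjusted p-values of 0.505 or more.

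Markers of oocytes moved with Bcl2l10 and Trp63. The 12 oocyte markers summed to 440, 558, 264 and 896 CPM in the Natural fetal ovaries and to 348, 70.1, 337, 118, 327 and 370 CPM in the IVF ones. All 11 that were tested were lower in IVF, with a median log2 fold change of -1.81, and Gdf9, Ooep, Zp1 and Zp3 were called (-2.14 to -3.14; without Natural replicate 4 none of these 4 was, with edgeR adjusted p-values of 0.0704 to 0.125), while Oosp1 was at 0 in every library. IVF replicates 2 and 4, with the lowest marker sums, also held the lowest Trp63 (4.63 and 9.31 CPM) and the lowest Bcl2l10 (0 and 0.601 CPM), and Natural replicate 4, with the highest sum, held the highest of both. Germ cell markers ran from 207 to 706 CPM in Natural and 214 to 473 CPM in IVF, where 5 of the 8 tested were higher and 3 lower, and Pou5f1 was called lower (log2 fold change -2.32, edgeR adjusted p = 0.0264). Fetal gonad soma markers ran from 1150 to 1270 CPM in Natural and 1300 to 1510 CPM in IVF, with no overlap, and Lgr5 of the 8 tested was called higher (0.71, edgeR adjusted p = 0.0230). Erythroid markers ran from 604 to 1600 CPM in Natural and 1620 to 4640 CPM in IVF, with no overlap, and 3 of the 7 tested were called. Theca and luteal markers overlapped, at 21.5 to 54.3 CPM in Natural and 34.3 to 51.1 CPM in IVF. Of the 7 tested, 6 were higher in IVF and 1 lower, and Lhcgr, Star and Cyp17a1 were called higher. All 6 endothelial markers were lower in IVF, and Pecam1 was called (-0.45, edgeR adjusted p = 0.0333). The part of these in the Bcl2l10 and Trp63 values was not tested. In a whole ovary, RNA counts alone cannot tell fewer oocytes from less RNA of a gene per oocyte. The paper counted stained germ cells in whole E18.5 ovaries and reported no difference between the groups.

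**Figure D2:**
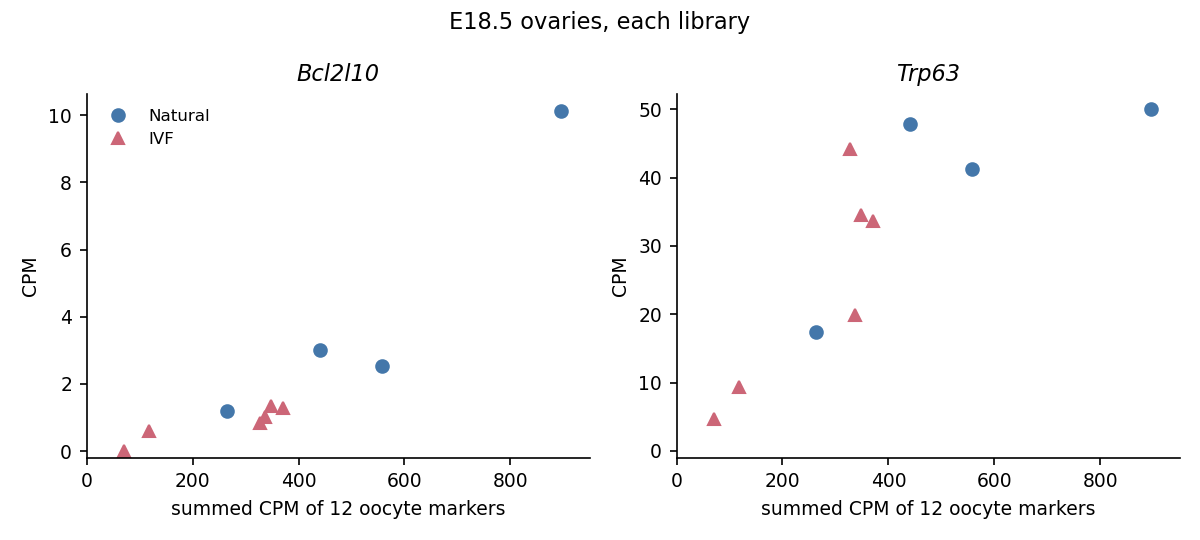
Bcl2l10 (left) and Trp63 (right) of each E18.5 ovary in CPM against the summed CPM of 12 oocyte markers in the same library, for 4 Natural (circles) and 6 IVF (triangles) ovaries. The 2 IVF ovaries with 70.1 and 118 CPM of markers hold the least of both genes, and the Natural ovary with 896 CPM holds the most.

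At 12 weeks, 0 of the 10 genes passed the edgeR test and 0 passed in DESeq2, and 1 was under an unadjusted p of 0.05. Only 0.00567% of 17628 genes passed in edgeR, and 14.4% had an unadjusted p under 0.05. The 10 genes were split, with 5 higher and 5 lower in IVF and a median log2 fold change of 0.00. The 1 gene was Bcl2, at 25.0, 30.1, 31.5 and 25.6 CPM in Natural and 14.8, 23.3, 16.7, 25.7 and 22.4 CPM in IVF. Of the 5 IVF ovaries, 4 were below every Natural ovary and replicate 4, the library of lowest depth, was not. The log2 fold change was -0.46 ± 0.17 (SE), with an edgeR adjusted p of 0.276. No gene of the 10 was free of overlap, against 6.09% of all genes.

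Bcl2l10 was 16.4 to 24.5 CPM in the Natural 12-week ovaries and 17.8 to 34.5 CPM in IVF (log2 fold change 0.39 ± 0.22, edgeR adjusted p = 0.432), with oocyte markers at 145 to 325 and 190 to 463 CPM. Of the 12 oocyte markers, 10 were higher in IVF and 2 lower, with a median log2 fold change of 0.48 and 0 called. Their part in the Bcl2l10 value was not tested. Bcl2l1 was 65.3 to 82.8 CPM in Natural and 57.5 to 81.2 CPM in IVF (-0.19 ± 0.12, edgeR adjusted p = 0.483). Trp63 was 2.92 to 4.76 CPM in Natural and 3.54 to 6.34 CPM in IVF (0.32 ± 0.26, edgeR adjusted p = 0.595). The other 6 genes had edgeR adjusted p-values from 0.519 for Bbc3 to 0.997 for Bax. Oviduct and epithelium markers differed without overlap in this comparison, at 3600 to 8070 CPM in Natural and 100.0 to 3180 CPM in IVF. So did basal epithelium markers, at 10.6 to 17.6 CPM in Natural and 2.01 to 6.82 CPM in IVF, and fetal gonad soma markers, at 809 to 967 CPM in Natural and 1070 to 1290 CPM in IVF. The part of these markers in the Bcl2 value was not tested.

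At 39 weeks the survival gene Bcl2l1 and the pore gene Bak1 were higher in all 5 IVF ovaries than in all 5 Natural ovaries. Bcl2l1 held 58.1, 53.7, 60.5, 43.5 and 51.4 CPM in Natural and 108, 86.6, 71.8, 82.9 and 68.0 CPM in IVF. The groups did not overlap, and the difference was 1.56-fold (log2 fold change 0.64 ± 0.14 SE), with an adjusted p of 0.0750 in edgeR and 0.00342 in DESeq2. IVF replicate 1, the ovary with oviduct markers, was the highest, and without it the log2 fold change was 0.53 with an edgeR adjusted p of 0.0595 and still no overlap. Theca and luteal markers ran from 20000 to 33000 CPM in Natural and from 11200 to 24700 CPM in IVF, and their part in the Bcl2l1 value was not tested. Bak1 held 61.1, 55.6, 66.0, 62.2 and 56.1 CPM in Natural and 84.7, 69.4, 66.8, 74.8 and 78.7 CPM in IVF. The groups did not overlap, though the lowest IVF ovary lay close to the highest Natural one, and the log2 fold change was 0.32 ± 0.09, with an adjusted p of 0.113 in edgeR and 0.0369 in DESeq2.

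In edgeR none of the 10 genes passed at 39 weeks, where 0.262% of 17186 genes did. DESeq2 called 2 of the 10, but it called 1135 genes over the whole table, against 45 in edgeR. An unadjusted p under 0.05 was reached by 3 of the 10 genes and by 19.2% of all genes. The 2 genes without overlap compare with 5.11% of all genes. Of the 10, 8 were higher in IVF and 2 lower, with a median log2 fold change of 0.13 against 0.03 over all genes. Leaving out single ovaries moved the edgeR adjusted p of Bcl2l1 between 0.0595 and 0.166, and that of Bak1 between 0.105 and 0.235.

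Bcl2l10 held 5.88, 11.7, 17.1, 11.8 and 10.3 CPM in the Natural 39-week ovaries and 21.6, 20.7, 8.28, 28.6 and 18.47 CPM in the IVF ones. Of the 5 IVF ovaries, 4 were above every Natural ovary and replicate 3 was not (log2 fold change 0.78 ± 0.33, edgeR adjusted p = 0.239). Oocyte markers overlapped, at 94.3 to 179 CPM in Natural and 97.1 to 218 CPM in IVF, and granulosa markers ran from 1220 to 3050 CPM and from 1960 to 4720 CPM. Of the 11 oocyte markers tested, 9 were higher in IVF and 2 lower, with a median log2 fold change of 0.26 and 0 called. Of the 10 granulosa markers, 9 were higher and 1 lower, with 0 called. The part of both lists in the Bcl2l10 value was not tested. Trp63 was 2.86 to 4.51 CPM in Natural and 2.46 to 3.51 CPM in IVF (-0.39 ± 0.22, edgeR adjusted p = 0.335). Bcl2 was 16.9 to 23.4 CPM in Natural and 19.3 to 36.7 CPM in IVF, and its log2 fold change of 0.29 ± 0.19 (edgeR adjusted p = 0.423) was 0.07 without IVF replicate 1. Bbc3 was 5.44 to 8.31 CPM in Natural and 5.00 to 12.0 CPM in IVF, where replicate 1 again held the highest value, and its log2 fold change was 0.00 with that ovary and -0.31 without it. The remaining 4 genes, Mcl1, Bax, Pmaip1 and Bcl2l11, had log2 fold changes from -0.06 to 0.16 and edgeR adjusted p-values of 0.415 or more.

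**Figure D3:**
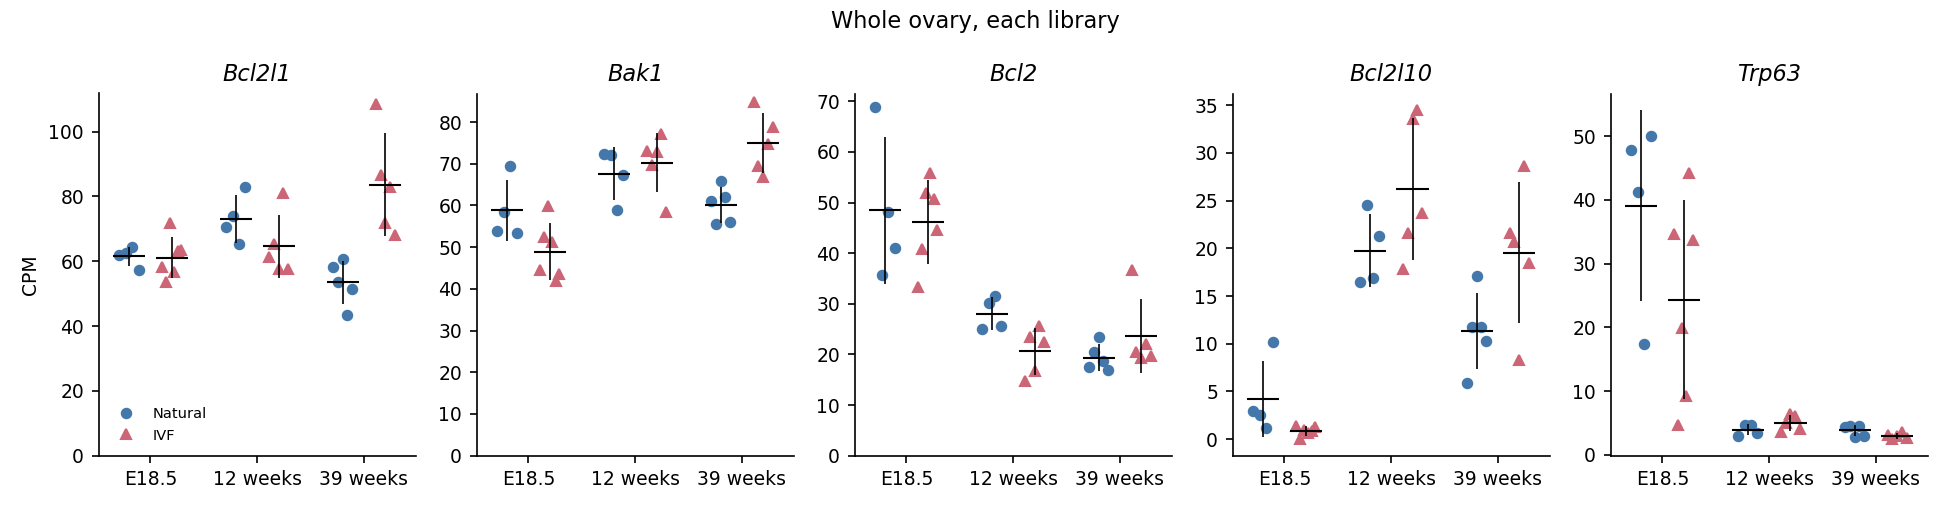
CPM of Bcl2l1, Bak1, Bcl2, Bcl2l10 and Trp63 in every whole-ovary library at E18.5, 12 and 39 weeks, for Natural (circles) and IVF (triangles). Horizontal bars are means and vertical bars are SDs. The 39-week IVF values of Bcl2l1 (68.0 to 108 CPM) and of Bak1 (66.8 to 84.7 CPM) lie above all Natural values of that age.

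Whether the IVF difference changed with age was tested directly, as an interaction of conception and age in 1 fit. From 12 to 39 weeks 0 of the 10 genes passed in edgeR, against 0.0157% of 19066 genes, and 4 of the 10 had an unadjusted p under 0.05, against 20.1% of all genes. For Bcl2l1 the IVF difference was 0.83 ± 0.18 (log2, SE) higher at 39 than at 12 weeks, with an edgeR adjusted p of 0.0709. Without IVF replicate 4 of the 12-week ovaries, the library of lowest depth, it was 0.91 with an edgeR adjusted p of 0.0390, and over all ovaries left out singly the edgeR adjusted p ran from 0.0390 to 0.147. For Bcl2 the change in difference was 0.74 ± 0.26 (edgeR adjusted p = 0.145), for Bak1 it was 0.26 ± 0.12 (edgeR adjusted p = 0.247), and for Trp63 it was -0.72 ± 0.32 (edgeR adjusted p = 0.222). From E18.5 to 12 weeks 0 of the 10 genes passed in edgeR, against 0.00557% of 17945 genes, and 1 had an unadjusted p under 0.05, against 16.0% of all genes. That gene was Bcl2l10, with a change in difference of 2.72 ± 0.70 (edgeR adjusted p = 0.110), which was 1.80 without Natural replicate 4 of the E18.5 ovaries. DESeq2 was not run on the interactions, and both share the 12-week ovaries with each other and with the comparison at that age.

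**Figure D4:**
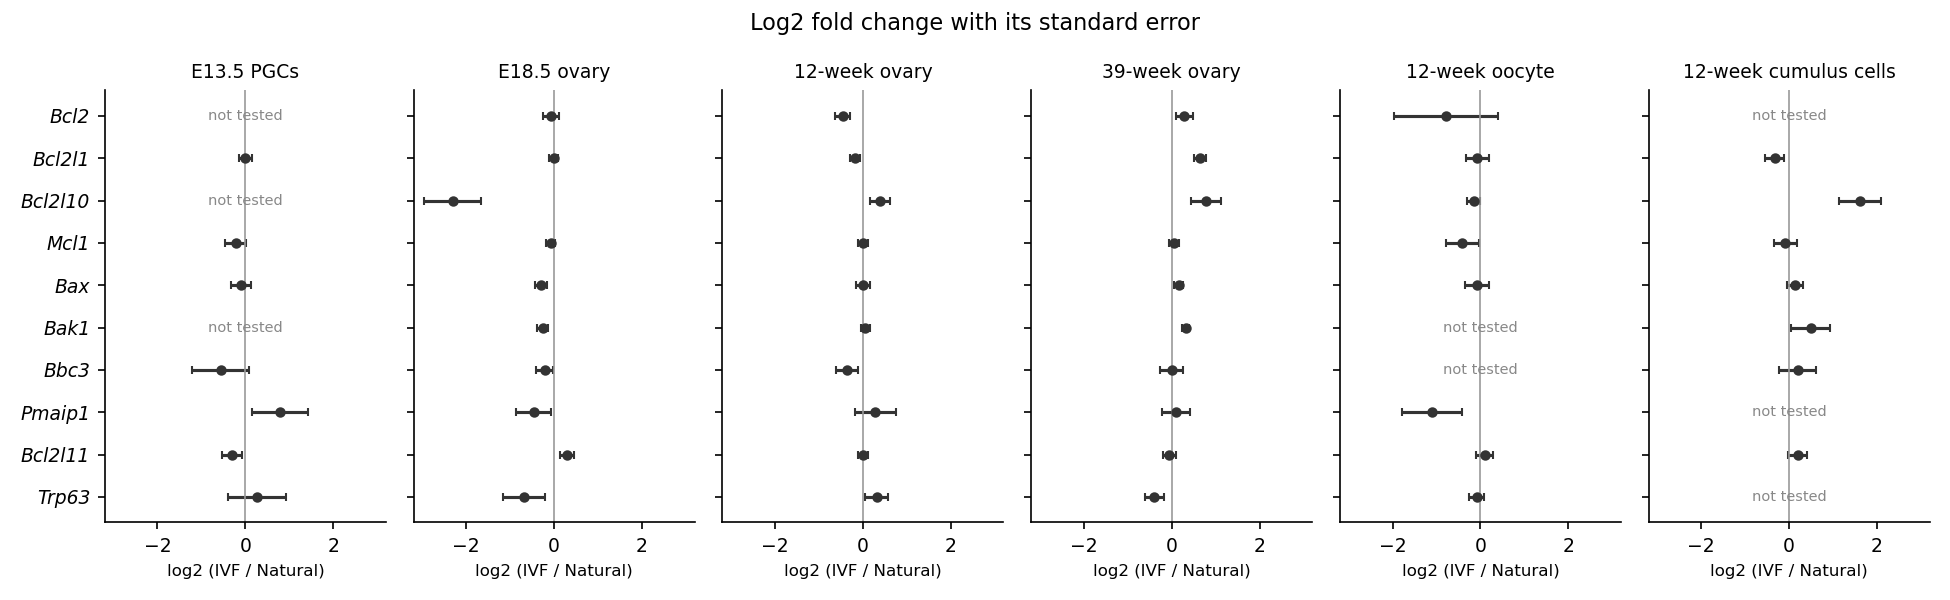
Log2 fold change of each gene, IVF over Natural, with its standard error (edgeR), in the 6 comparisons that were tested. Genes that the expression filter removed are marked as not tested. The value of Bcl2l10 is -2.31 at E18.5 and 0.78 at 39 weeks, and that of Bcl2l1 at 39 weeks is 0.64 with a short bar.

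In PGCs, 7 of the 10 genes had enough counts for the test and 0 passed in edgeR or DESeq2, with 0 under an unadjusted p of 0.05. No gene of 12763 passed in edgeR (0%), and 2.73% had an unadjusted p under 0.05. Bcl2, Bcl2l10 and Bak1 were not tested. Bax, the most abundant of the 10 per kb of exon, held 187, 95.8, 199 and 158 CPM in Natural and 162, 118, 142, 184 and 140 CPM in IVF, and the IVF libraries lay inside the Natural range. Pmaip1 held 3.69, 0.394, 6.07 and 4.41 CPM in Natural and 9.18, 6.06, 6.38, 3.43 and 6.20 CPM in IVF. These overlapped, with a log2 fold change of 0.80 ± 0.63 (edgeR adjusted p = 1.0). Natural and IVF values were free of overlap for 0 of the 7 genes and for 1.18% of all genes.

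Before the 12-week oocytes are compared, those that stood apart need describing. Single oocytes were split by the summed level of 12 oocyte markers, where a gap ran from 8380 to 28400 CPM with no oocyte between. The 10 oocytes below it (4 Natural and 6 IVF, of which 4 were in IVF set 3, 2 in IVF set 4 and 2 in Natural set 2) had 839781 to 4991194 counts, and the 66 above it had 2591803 to 10879166. Bcl2l1 ran from 357 over a median of 503 to 622 CPM in the 10 oocytes and from 61.2 over 104 to 159 CPM in the 66, with no overlap. Bcl2l10 ran from 628 over 2550 to 6360 CPM in the 10 and from 5570 over 7390 to 9460 CPM in the 66, where only 1 of the 10 reached the range of the others. Bcl2l11 had medians of 93.1 and 32.7 CPM and overlapped, and Trp63 had medians of 18.9 and 12.8 CPM and overlapped. The 2 such oocytes at 39 weeks, Natural 6 and 9, held 520 and 695 CPM of Bcl2l1 against 42.2 to 276 CPM in the other 17, and 5970 and 4080 CPM of Bcl2l10 against 6000 to 12000 CPM. The split was chosen after these values were seen, so it is a description with no test.

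**Figure D5:**
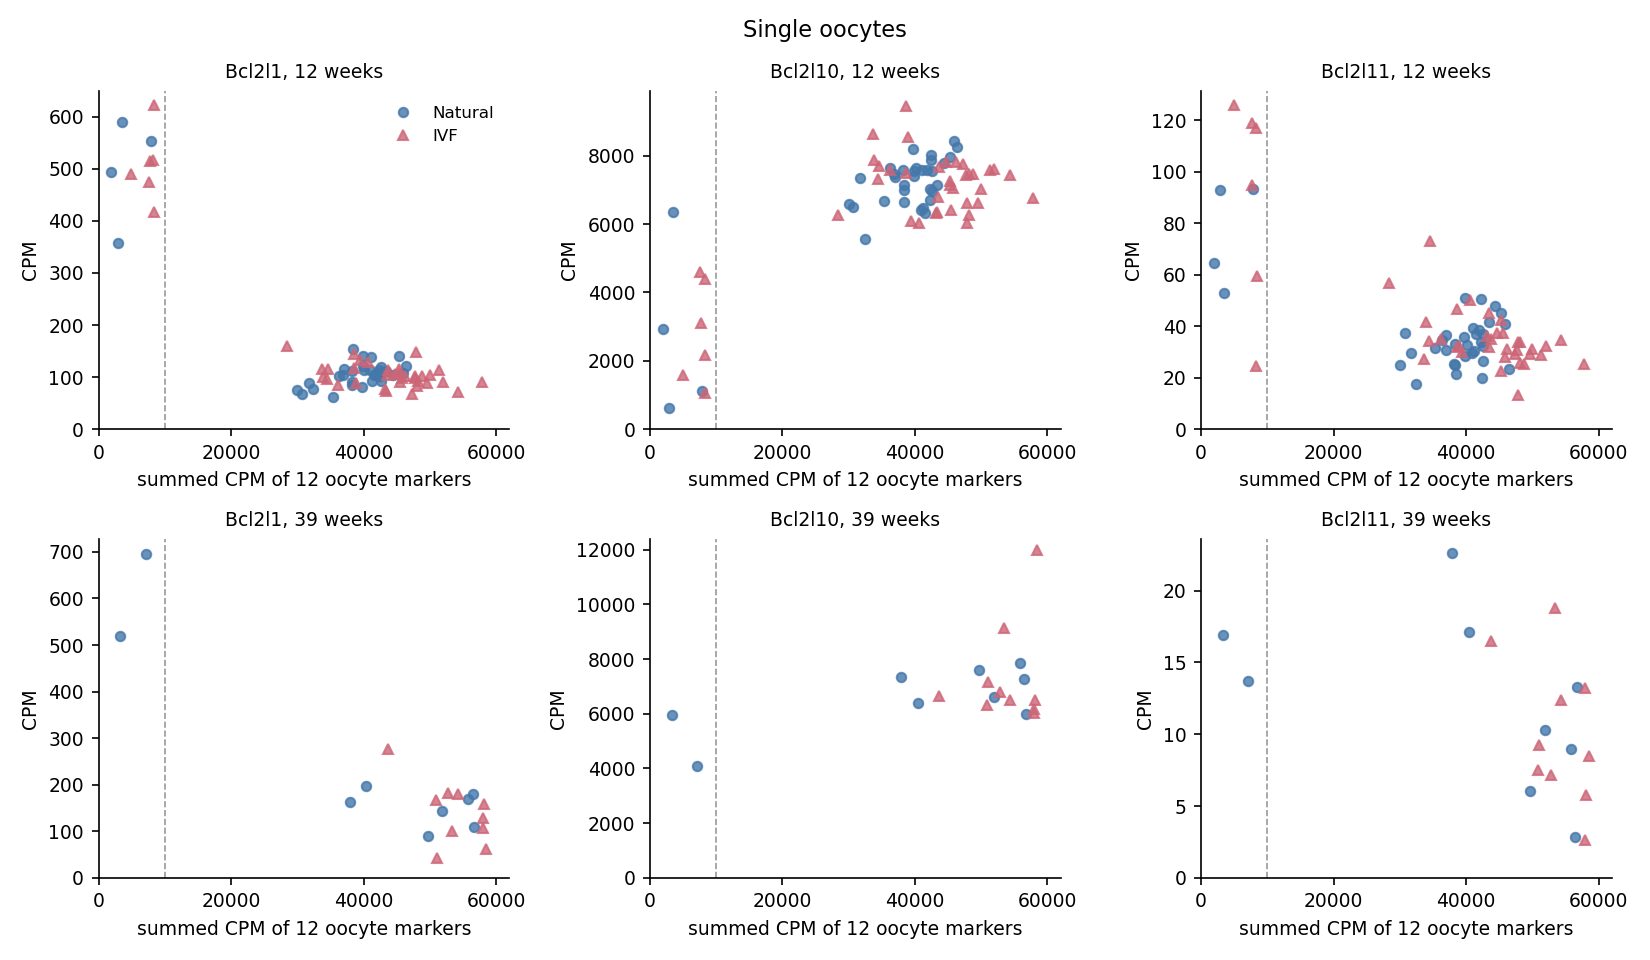
Bcl2l1, Bcl2l10 and Bcl2l11 of every single oocyte in CPM against the summed CPM of 12 oocyte markers, at 12 weeks (top, 76 oocytes) and 39 weeks (bottom, 19 oocytes), for Natural (circles) and IVF (triangles). The dashed line is at 10000 CPM. All 12 oocytes to its left hold more Bcl2l1 (357 CPM or more) than any oocyte to its right (276 CPM or less).

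Counts of 12-week oocytes were summed over the 5 Natural and 5 IVF sets that library names define, since oocytes of 1 set are not replicates of a condition. The name prefixes of the sets differ between the groups, so conception and collection cannot be told apart. Of the 10 genes 8 were tested, and 0 passed in edgeR or DESeq2, with 0 under an unadjusted p of 0.05. In edgeR 0.0277% of 14444 genes passed and 6.67% had an unadjusted p under 0.05. Bcl2l10 held 8200, 6800, 7230, 8020 and 6530 CPM in the Natural sets and 7630, 6650, 4560, 6760 and 7410 CPM in the IVF sets. The low IVF value is that of set 3, which holds 4 of the oocytes that stood apart, and the groups overlapped (log2 fold change -0.16 ± 0.14, edgeR adjusted p = 0.895). Bcl2l1 held 96.0, 221, 124, 129 and 118 CPM in Natural and 117, 92.6, 214, 130 and 101 CPM in IVF. Its highest values are those of Natural set 2, with 2 such oocytes, and IVF set 3, with 4, while IVF set 4, with 2, held 130 CPM, and its log2 fold change was -0.07 ± 0.26 (edgeR adjusted p = 0.978).

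Pmaip1 had the largest fitted difference in these oocytes, at 0.218 to 1.46 CPM in Natural and 0.0909 to 0.691 CPM in IVF, which overlapped (log2 fold change -1.10 ± 0.69, edgeR adjusted p = 0.832). Trp63 was 12.1 to 17.3 CPM in Natural and 11.7 to 18.51 CPM in IVF (-0.08 ± 0.17, edgeR adjusted p = 0.963). The 8 genes had 1 higher and 7 lower values in IVF and a median log2 fold change of -0.12 against 0.02 over all genes, and 0 were free of overlap, against 1.39% of all genes. With the 10 oocytes left out before summing, 0 of the genes passed, and the values were -0.08 for Bcl2l10, -0.08 for Bcl2l1, -0.44 for Pmaip1, -0.04 for Bcl2 (-0.78 with them) and 0.02 for Trp63.

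For 39-week oocytes the labels name no animal or set, so each group counts as 1 sample and no test was made. Over the 9 Natural oocytes Bcl2l1 ran from 89.1 over a median of 170 to 695 CPM, and over the 10 IVF oocytes from 42.2 over 143 to 276 CPM. Pooled, it was 289 CPM (95% exact Poisson interval 286 to 292, counting error only) in Natural and 134 CPM (132 to 136) in IVF. Without Natural oocytes 6 and 9 the Natural value was 155 CPM and the ratio moved from 0.464 to 0.862. Bcl2l10 was 6370 CPM in Natural and 7160 CPM in IVF, a ratio of 1.12. Trp63 was 20.3 CPM (19.5 to 21.2) in Natural and 13.0 CPM (12.5 to 13.6) in IVF, and the Natural value was 14.0 CPM without the 2 oocytes.

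Of the 9 genes with over 3 counts in both groups, 3 lay at least 2-fold apart, whereas 38.1% of 19091 genes with over 3 counts in both groups did. They were Bcl2l1, Mcl1 (2.73 CPM in Natural and 0.832 CPM in IVF) and Pmaip1 (0.130 CPM in Natural, with all reads from 1 of 9 oocytes, and 0.491 CPM in IVF, with reads in 5 of 10). Without the 2 oocytes only Pmaip1 stayed past 2-fold, at 2.71, and Mcl1 was 0.919 CPM in Natural. Bax was 9.13 CPM in Natural and 5.21 CPM in IVF, and 4.04 CPM in Natural without the 2 oocytes, which reverses its direction. Bak1 had 8 counts in Natural and 2 in IVF, and no ratio is given. Erythroid markers ran from 115 over a median of 2020 to 18400 CPM in the Natural oocytes and from 2.34 over 184 to 27000 CPM in the IVF oocytes, and their part in these values was not tested.

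In cumulus cells 7 of the 10 genes were tested, with the kind of library name (ending in GC or not) as a covariate, and 0 passed in edgeR or DESeq2. In edgeR 0.00973% of 10280 genes passed, and an unadjusted p under 0.05 was reached by 1 of the 7 genes and by 6.08% of all genes. That gene was Bcl2l10. In libraries named GC it held 4.20, 3.72 and 4.13 CPM in Natural and 13.4, 7.22 and 11.7 CPM in IVF, and in the others it held 0 and 0 CPM in Natural and 0.328 and 0.649 CPM in IVF. The name of the GC library of Natural replicate 5 (4.13 CPM) shares its leading fields with an IVF oocyte set, its group here is that of its label, and without it the log2 fold change was 1.67 (edgeR adjusted p = 0.683). Within each kind of library the IVF values were all above the Natural ones, but across kinds they overlapped. In the libraries not named GC the IVF values rest on 2 and 4 counts against 0 and 0 in Natural. The log2 fold change was 1.60 ± 0.48 (SE), with an edgeR adjusted p of 0.552, and DESeq2 gave no adjusted p for it. Oocyte markers moved with the kind of library, at 26.2 to 35.8 CPM in Natural and 31.4 to 61.3 CPM in IVF for GC libraries and 0.811 to 1.31 CPM for the others, and their part in the Bcl2l10 value was not tested.

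Bax in cumulus cells was 48.1 to 101 CPM in Natural and 46.8 to 94.6 CPM in IVF (log2 fold change 0.14 ± 0.19, edgeR adjusted p = 0.949). Bcl2l1 was 29.9 to 49.1 CPM in Natural and 22.6 to 46.3 CPM in IVF (-0.32 ± 0.22, edgeR adjusted p = 0.875). Bak1 split by the kind of library, at 0.350 to 3.19 CPM in GC libraries and 6.24 to 9.09 CPM in the others. The 7 genes were higher in IVF in 5 cases and lower in 2, with 0 free of overlap against 0.759% of all genes. Nothing says that the cumulus, PGC or oocyte libraries came from separate animals, so their p-values measure the spread between these samples.

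The rest of the pathway was read from 4 lists: 16 other Bcl2 family genes, 19 caspase and apoptosome genes, 14 checkpoint genes upstream of Trp63 and Trp53, and 14 target genes of the Trp53 family. Over the 6 comparisons tested, 1 gene of these lists passed in edgeR, and that was Bnip3 at E18.5. Bnip3, a BH3-like gene linked to mitophagy and induced by low oxygen, fell in IVF from 39.2 ± 3.96 CPM (SD, n = 4) to 22.0 ± 3.72 CPM (n = 6), with a log2 fold change of -0.83 ± 0.14 (SE; edgeR adjusted p = 0.0129) and no overlap. Without single libraries its adjusted p in edgeR ran from 0.00883 to 0.0329, and with the replicate number as a block it was 0.185. Of the 10 tested genes of its list, 1 was free of overlap at E18.5, against 8.61% of all genes. The other 9 of 10 tested genes of its list, all 19 caspase and apoptosome genes and all 13 tested genes of each of the other lists did not pass at E18.5. Of all genes tested, 5.43% were called there. In the other comparisons 0.262% of all genes or fewer were called.

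Partners of the 10 genes were read in the same fits. Bcl2l2, the survival gene Bcl-w, was 104 CPM in Natural and 77.8 CPM in IVF at 39 weeks, opposite in sign to Bcl2l1, with a log2 fold change of -0.42 ± 0.12 (edgeR adjusted p = 0.125). Its log2 fold change was -0.19 ± 0.08 at 12 weeks (edgeR adjusted p = 0.340), 0.20 ± 0.11 at E18.5 (78.7 and 90.5 CPM, edgeR adjusted p = 0.283) and 0.51 ± 0.25 in cumulus cells, where the groups did not overlap (9.64 and 13.7 CPM, edgeR adjusted p = 0.822). Of the 9 other Bcl2 family genes tested in cumulus cells, 1 was free of overlap, against 0.759% of all genes. Casp9, the caspase that the apoptosome activates, was 43.4 CPM in Natural and 51.0 CPM in IVF at 12 weeks without overlap (0.23 ± 0.07, edgeR adjusted p = 0.211). It was the only 1 of the 19 caspase and apoptosome genes without overlap there, near the share of 6.09% of all genes. Chek2, the kinase upstream of p63, was 14.5 CPM in Natural and 11.1 CPM in IVF at E18.5 (-0.39 ± 0.19, edgeR adjusted p = 0.244). In the sets of 12-week oocytes, where it was near the floor, it was 0.379 to 0.690 CPM in Natural and 0.691 to 2.16 CPM in IVF (1.12 ± 0.41, edgeR adjusted p = 0.699), and 0.99 on the log2 scale without the oocytes of low markers. Bid, a BH3-only gene cut by Casp8, was 0.358 to 0.873 CPM in Natural and 0.818 to 3.55 CPM in IVF in the same oocytes, which overlapped (1.24 ± 0.47, edgeR adjusted p = 0.699). The log2 value of Bid was 0.68 without IVF set 3 and 0.53 without the oocytes of low markers. At E18.5 Trp53 was 122 CPM in Natural and 99.4 CPM in IVF (-0.29 ± 0.15, edgeR adjusted p = 0.248), Bok, a relative of the pore proteins, was 29.4 and 23.7 CPM (-0.31 ± 0.15, edgeR adjusted p = 0.229), and Bad, a BH3-only gene, was 34.9 and 28.1 CPM (-0.31 ± 0.16, edgeR adjusted p = 0.243). At 39 weeks Bok was 41.9 CPM in Natural and 54.7 CPM in IVF (0.39 ± 0.20, edgeR adjusted p = 0.32). Bmf, another BH3-only gene, was 60.3 CPM in Natural and 46.8 CPM in IVF at 39 weeks (-0.37 ± 0.17, edgeR adjusted p = 0.267). Apaf1, the scaffold of the apoptosome, was 11.5 and 7.83 CPM in cumulus cells (-0.66 ± 0.35, edgeR adjusted p = 0.848).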

How the data were processed

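RNA-seq of ovaries, E13.5 PGCs, single oocytes and cumulus cells of female mice was used. The authors deposited counts of reads per gene in 7 tables (143 libraries used), without normalization. The submitters' processing notes name Trimmomatic 0.32, STAR 2.3.0e, featureCounts 1.5.0 and mm10, and the methods name Trim Galore, STAR and featureCounts for low-input libraries. How reads of overlapping genes were split is not given in the sources used here.

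Groups came from the labels. CPM is 1 gene's counts per 1000000 counts of its library, with the library total scaled by its TMM factor, except in 39-week and single oocytes. Each comparison was fitted over the whole table with edgeR 4.0.16 (R 4.3.3), with TMM scaling, its standard filter on low counts and two-sided quasi-likelihood tests, and Benjamini-Hochberg adjusted p below 0.05 was called. Counts of 12-week oocytes were summed per set, and the cumulus fit held the kind of library name. Interactions were fitted in 1 model of both ages. Pooled 39-week counts had 95% exact Poisson intervals. Alternatives were DESeq2 1.42.0, its size factors in edgeR, no expression filter, the replicate number as a block, no library covariate, each library left out, other averages of 39-week oocytes and, chosen after seeing the data, oocytes with low markers left out. The fits were tested on simulated counts. Positions and sequences came from GENCODE on GRCm38. In Python 3.11.15, pandas 2.3.3 and matplotlib 3.10.9 were used.

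The 10 genes and the lists were chosen with earlier results of these data known. Named beyond the 10 are called genes of the 4 pathway lists, a fixed set of partners (Casp9, Apaf1, Chek2, Trp53, Bcl2l2, Bok, Bid, Bad and Bmf), given for comparisons with an unadjusted p below 0.1 (another partner is not reported here), and the 5 genes most like Bcl2l10 and Trp63. Of the gene names of ovary libraries, 27 read as numbers, and none is named here. No 2 libraries held identical counts. The authors' own comparisons of gene expression were not used.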

Additional observations from a re-analysis of the deposited data

Results flagged for a closer look

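Within the groups of the 6 tested comparisons (4 to 6 samples each), 104 sets of values of the 10 genes were checked for 1 sample far from the others. Of these, 6 had one. The 39-week oocytes were not among them. There Natural oocyte 9 held 29.1 CPM of Bax against 11.2 CPM or less in the other Natural oocytes. IVF oocyte 7 held 8.86 CPM of Bcl2 against 0.66 CPM or less in the other IVF oocytes. Chance gives such a sample in about 1 in 20 groups. IVF replicate 3 of the E18.5 ovaries held 227 CPM of Mcl1 against 162 to 172 CPM in the other 5, and 17.3 CPM of Bbc3 against 10.1 to 12.2 CPM. IVF replicate 1 of the 39-week ovaries, which held 9360 CPM of oviduct and epithelium markers, held 36.7 CPM of Bcl2 against 19.3 to 22.0 CPM in the other 4, and 12.0 CPM of Bbc3 against 5.00 to 5.67 CPM. Natural set 2 of the 12-week oocytes, in which 2 of 8 oocytes had low oocyte markers, held 221 CPM of Bcl2l1 against 96.0 to 129 CPM in the other 4 sets. IVF set 1 of the 12-week oocytes, with 0 such oocytes, held 18.51 CPM of Trp63 against 11.7 to 12.9 CPM in the other 4.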

How the results depend on the processing

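The calls of the 10 genes depended on the tool. DESeq2 called 1 of them at E18.5 (Bcl2l10) and 2 at 39 weeks (Bcl2l1 and Bak1), edgeR without a filter on low counts called 1 at E18.5 (Bcl2l10), and 0 were called in the other comparisons by any of these fits. Without single libraries, edgeR called 0 to 1 of the 10 at E18.5 and 0 to 1 in the interaction of 39 against 12 weeks, and 0 in each of the other tested comparisons. Over all genes, edgeR called 891 at E18.5, 1 at 12 weeks, 45 at 39 weeks, 4 in 12-week oocytes and 1 in cumulus cells, against 1870, 635, 1135, 54 and 31 in DESeq2. Without the filter, edgeR called 9 genes at 12 weeks, 28 at 39 weeks, 19 in 12-week oocytes, 104 in cumulus cells and 17 in the interaction of 12 weeks against E18.5, and with size factors of DESeq2 it called 10 in that of 39 against 12 weeks. Without the library covariate it called 0 genes in cumulus cells. Leave-one-out counts ran from 313 (without Natural replicate 2) to 1973 (without Natural replicate 1) at E18.5, from 1 to 5 at 12 weeks, from 0 (without Natural replicate 5) to 123 (without IVF replicate 1) at 39 weeks, from 1 to 8 in 12-week oocytes, from 1 to 5 in cumulus cells, from 0 to 57 (without 12-week IVF replicate 4) in the interaction of 39 against 12 weeks, and from 0 to 173 (without 12-week IVF replicate 2) in that of 12 weeks against E18.5. The cause of these differences was not tested. Of 9 genes in 39-week oocytes, 1 was past 2-fold by the median over oocytes, 1 without the oocytes of low markers, and 1 (without Natural oocyte 9) to 4 with single oocytes left out.

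Same-numbered libraries did not deviate together in every pair (correlations from -0.357 to 0.536). So few pairs in each comparison cannot decide whether the numbers pair them. With the replicate number as a block, edgeR called 3 genes at E18.5, 0 at 12 weeks, 24 at 39 weeks and 0 in cumulus cells, Bcl2l10 at E18.5 was -2.35 with an adjusted p of 0.265, and Bnip3 was -0.89 with an adjusted p of 0.185. No paired analysis was possible for 12-week oocytes because the sets carry no shared numbers, nor was a block fitted for the interactions.

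Directions of some uncalled values turned under some settings, among them values up to 0.783 from 0 (Bcl2 in 12-week oocytes). Under the block, Bax at 12 weeks was 0.042, Bcl2l11 at 12 weeks -0.013, Bbc3 at 39 weeks -0.070 and Bcl2l1 in PGCs -0.034. Bcl2l11 at 12 weeks was -0.008 with size factors of DESeq2 and -0.031 without the filter, Bbc3 at 39 weeks was -0.002 in DESeq2, and Trp63 in 12-week oocytes was 0.019 without the oocytes of low markers. Leave-one-out ranges of log2 values that crossed 0 were, at E18.5, -0.193 to 0.148 for Bcl2 and -0.061 to 0.027 for Bcl2l1. In 12-week ovaries they were -0.010 to 0.092 for Bak1, -0.131 to 0.065 for Bax, -0.043 to 0.055 for Bcl2l11 and -0.068 to 0.063 for Mcl1. In 39-week ovaries they were -0.311 to 0.090 for Bbc3, -0.145 to 0.039 for Bcl2l11 and -0.150 to 0.260 for Pmaip1. In PGCs they were -0.114 to 1.153 for Trp63, -0.040 to 0.067 for Bcl2l1, -0.381 to 0.015 for Mcl1 and -0.278 to 0.029 for Bax. In 12-week oocytes they were -1.096 to 0.237 for Bcl2, -0.067 to 0.176 for Bcl2l11, -0.329 to 0.168 for Bcl2l1 and -0.267 to 0.064 for Bax. In cumulus cells they were -0.310 to 0.110 for Mcl1, -0.025 to 0.458 for Bbc3 and -0.019 to 0.238 for Bax. In the interaction of 39 against 12 weeks they were -0.164 to 0.036 for Bcl2l11, -0.021 to 0.101 for Mcl1 and -0.511 to 0.083 for Pmaip1, and in that of 12 weeks against E18.5 -0.274 to 0.022 for Bbc3. Of 1138 alternative values of the 10 genes, 1072 kept their direction and their side of the threshold. Depth limits Bcl2l10 at E18.5 and in cumulus cells, Pmaip1 in every sample and Bak1 outside the ovary, which rest on few counts.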
